A study of Mus musculus with 8 samples.

Results

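Type I interferon-stimulated effector genes are the genes that cells switch on when interferon alpha or beta reaches them. The set held 42 mouse genes named as a list, and each gene was read by its brightest probe over the 8 arrays among the probes whose accession maps to it. Probes were matched for 37 of the 42 (57 probes), and 36 entered the comparison, out of 20879 genes tested in all. Mx1, Mx2, Dtx3l, Herc6 and Ddx60 were not matched by accession and are not analysed here. The 36 genes were well above background on all 8 arrays, so none entered through one genotype alone. The remaining gene, Oas1g, was well above background on 0 of 4 WT arrays and 2 of 4 KO arrays, was not tested and is given no fold.

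The samples were tumour-associated macrophages from C57BL/6 mice whose breast tumours had grown from orthotopically implanted cells of the PyMT mammary cancer model. Both groups received these tumour cells, and tumours were taken about 21 days later. Cells carrying both F4/80 and CD45 at their surface were sorted from the digested tumours. The 4 samples called WT came from wild-type hosts and the 4 called KO from hosts lacking ATF3, a stress-induced transcription factor. The labels give the deletion for the host, and the sources used here do not give the ATF3 state of the implanted tumour cells. The sources used here do not say whether each sample came from its own mouse or from pooled mice, so p-values measure the spread between these samples, which may be technical. The comparison asks how macrophages of the ATF3-deficient hosts differed from those of wild-type hosts.

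Type I interferons signal through a receptor of Ifnar1 and Ifnar2 chains to the kinases Jak1 and Tyk2. These activate a transcription factor complex, with Stat2 and Irf9 among its parts, that binds a promoter element called the ISRE (interferon-stimulated response element). The genes behind that element encode proteins that sense foreign nucleic acid, block viral entry, degrade or edit RNA, starve viruses of nucleotides and, in part, restrain the response itself. Tumour-associated macrophages are known to express many of them.

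Many of these genes carry the same motif in their promoters. RefSeq windows (build GRCm38.p6, 250 bases before to 50 after the gene start) were found for 30 of the 42 genes. They were searched on both strands for the core of the ISRE, GAAANNGAAA, which reads TTTCNNTTTC on the other strand. Of the 30 genes, 16 (53.33%) held at least 1 core and 9 held more than 1, against 3.99% of the 27025 genes with windows of the same length. The following stretches, all upstream of the start, are shown because they carry ISRE cores of genes whose signals are described next. That of Oas1g, which was not tested, is shown beside that of Oas1a. Each is written 5′ to 3′ along the gene's own strand, with every base of a core in capitals.
Isg15, chr4:156200862-156200921, minus strand: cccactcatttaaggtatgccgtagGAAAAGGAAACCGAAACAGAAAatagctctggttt
Ifit1, chr19:34640760-34640819, plus strand: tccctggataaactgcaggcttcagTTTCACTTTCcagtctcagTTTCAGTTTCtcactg
Ifit3, chr19:34583348-34583407, plus strand: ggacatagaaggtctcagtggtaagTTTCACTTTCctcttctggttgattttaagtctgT
Rsad2, chr12:26456538-26456597, minus strand: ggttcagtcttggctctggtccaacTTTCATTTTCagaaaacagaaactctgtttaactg
Bst2, chr8:71537568-71537627, minus strand: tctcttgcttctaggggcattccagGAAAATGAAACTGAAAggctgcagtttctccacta
Oas3, chr5:120777700-120777759, minus strand: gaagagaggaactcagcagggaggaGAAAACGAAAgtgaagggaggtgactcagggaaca
Oas1a, chr5:120907526-120907570, minus strand: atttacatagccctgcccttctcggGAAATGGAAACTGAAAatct
Oas1g, chr5:120887614-120887656, minus strand: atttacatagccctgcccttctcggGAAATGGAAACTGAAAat
Trim30a, chr7:104465195-104465254, minus strand: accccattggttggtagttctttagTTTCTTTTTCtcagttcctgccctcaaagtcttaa

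In Isg15 3 cores overlap in one run, beginning 78, 72 and 66 bases before the start. Bst2 has 2 overlapping cores and Ifit1 has 2 cores a few bases apart, while Rsad2 and Oas3 have 1 each. Ifit3 has 2 cores, and the second begins at the last base shown. The first 43 bases of the Oas1a and Oas1g stretches were identical, with a pair of overlapping cores that begin 20 and 14 bases before the start of Oas1a and 18 and 12 before that of Oas1g. A match describes the letters only and is not evidence of a bound factor. The 14 genes with a window and no core in it were Ifit2, Isg20, Oasl1, Oasl2, Ifi44, Cmpk2, Xaf1, Ifi35, Ifitm1, Dtx3l, Samhd1, Adar, Herc6 and Sp100.

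All signals below are log2 of an array's processed intensity relative to that array's 75th percentile, so that 0 is a probe as bright as the 75th percentile. Values of different genes are not set against each other, because each comes from its own probe. The 75th percentile intensity was 619 to 926, the median background 26 to 31, and 63.7% to 68.0% of probes exceeded background clearly. The number of arrays, 4 per genotype, limits the precision. The Atf3 probe read 4.92, 4.99, 4.79 and 4.51 in the WT samples, in the order of their numbers 1 to 4, and 5.51, 4.86, 4.96 and 4.88 in KO. KO samples thus showed no lower Atf3 signal, and the sources used here do not say whether this probe lies in the deleted part. WT and KO therefore stand below for the samples labelled so. The sort markers Adgre1, which encodes F4/80, and Ptprc, which encodes CD45, were well above background on all 8 arrays.

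No interferon-stimulated gene was called different between the genotypes. None of the 36 had an adjusted p under 0.05 in limma (0% of all 20879 genes did), and the adjusted p was 0.9999 for each. At an unadjusted limma p under 0.05, 0 of 36 were higher in KO, against 1.12% of all genes, and 0 were lower, against 2.22% of all genes. For every one of the 36, the WT and KO samples overlapped. Among all genes, 0.757% had every KO sample above every WT sample and 1.36% the reverse. The direction was uneven: 28 of 36 had the higher mean in KO, against 48.6% of all genes, and the median difference (KO minus WT) was 0.13 against -0.0086. With normexp background correction, which moved the median of all genes to -0.14, 33 of 36 had the higher mean in KO. That correction turned the sign of the difference for 7 genes: Ddx58, Dhx58, Ifit3, Ifitm2, Oasl1, Parp14 and Rsad2. Leaving out 1 sample turned the sign for 20 of the 36. Over all settings and left-out samples the sign held for 12: Ifi35, Ifi44, Ifit1, Oas1a, Oas2, Oasl2, Parp9, Rtp4, Tor3a, Usp18, Xaf1 and Zbp1. The count and the median are descriptions without a test, since the genes were listed with earlier results of these data known.

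The lean towards KO depended on which samples were kept. Leaving out 1 sample keeps the same-numbered sample of the other genotype, so the numbers are then unbalanced between genotypes. Without WT sample 4, 16 of 36 genes had the higher mean in KO and the median difference was -0.03. Without that sample 12 genes turned sign, among them Bst2, Ifih1, Samhd1, Sp100 and Trim30a. Without KO sample 1, 19 of 36 had the higher mean in KO and the median was 0.02. Without KO sample 4 the count was 33 and the median 0.27. Leaving out both samples numbered 4, a choice made after seeing the data, gave 27 of 36 and 0.13. Within slide 1 and within slide 2 the count was 27 each time, with 5 genes turning sign in each. Between same-numbered samples, KO was higher for 28, 20, 24 and 23 of the 36 genes at numbers 1 to 4. Over all genes the shares at these numbers were 52.1%, 44.5%, 47.8% and 49.8%. For 7 of 36, KO was higher in 4 of 4 same-numbered pairs, against 7.39% of all genes: Oas1a, Oasl2, Ifi44, Usp18, Zbp1, Tor3a and Trim30a.

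**Figure D1:**
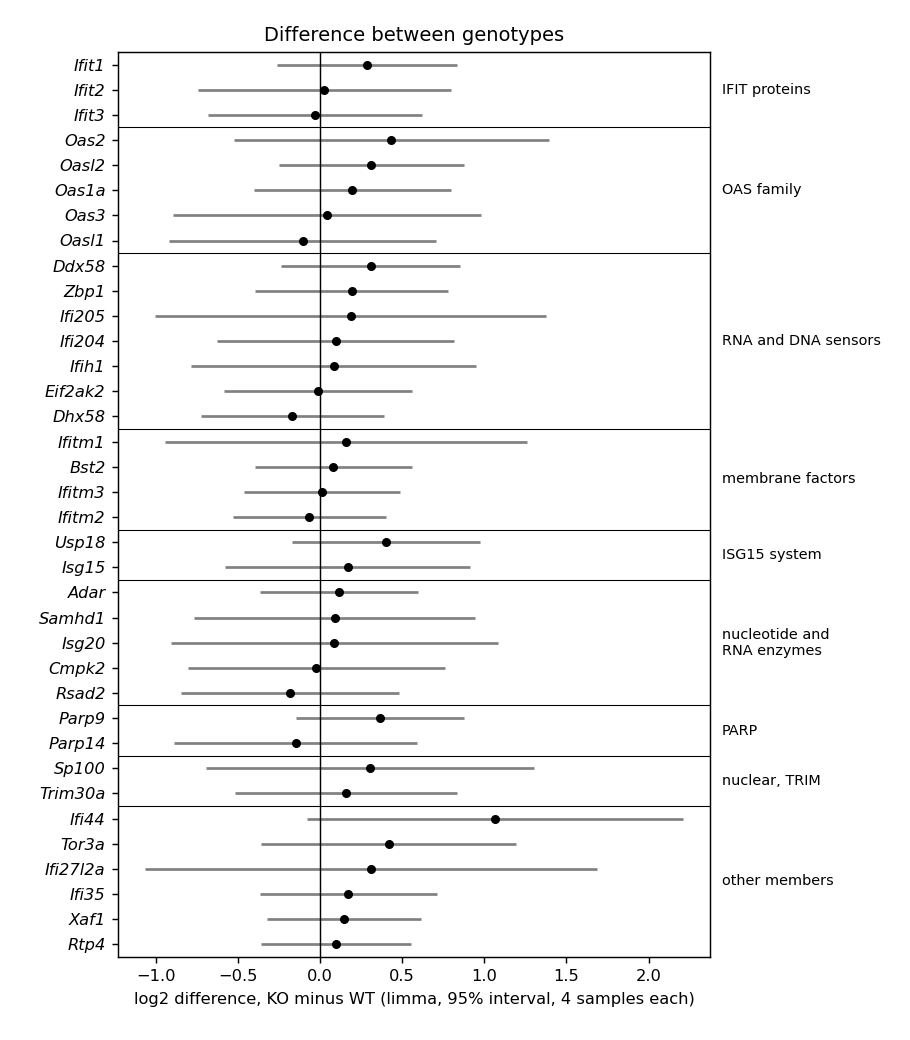
Difference of the mean log2 signal, KO minus WT, for the 36 interferon-stimulated genes tested, grouped by role. Points are limma estimates and lines their 95% intervals, from 4 samples per genotype. All 36 intervals cross 0, and Ifi44 has the largest estimate, 1.06.

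The IFIT proteins bind foreign RNA and hinder its translation. Ifit1, which recognises the ends of RNA that lack the host's cap methylation, read 2.81, 3.14, 2.39 and 2.68 in WT, again by number, and 3.48, 3.02, 2.70 and 2.97 in KO. KO sample 1 was highest and WT sample 3 lowest, and the genotypes overlapped, with a difference of 0.29 (SE 0.24). Ifit3, of the same family, read 3.39, 3.20, 2.73 and 2.39 in WT and 3.34, 2.85, 2.89 and 2.50 in KO. Both genotypes fell into the same order of samples apart from a near tie of KO samples 2 and 3, and the difference of -0.03 (SE 0.28) was far inside the spread of either group. Ifit2 differed by 0.03 at its brightest probe, and its dimmer second probe by 0.55. That second probe was well above background on only 3 of 4 WT arrays, against 4 of 4 KO arrays.

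The active enzymes of the OAS family make short oligoadenylates that switch on the ribonuclease RNase L. Of the 5 family genes tested, 4 had the higher mean in KO, none called, with a median difference of 0.20. Oasl2 read 2.51, 2.05, 2.16 and 1.70 in WT and 2.79, 2.57, 2.24 and 2.07 in KO. Each KO sample exceeded the WT sample of its number, and the ranges still overlapped, with a difference of 0.31 (SE 0.24). Oas2 read -0.81, -1.59, -0.64 and -2.33 in WT and -0.41, -1.33, -0.65 and -1.25 in KO. WT sample 4 was the lowest of the 8 for Oas2 and the 2 samples numbered 3 were nearly equal, and the difference was 0.43 (SE 0.41). At a dimmer Oas2 probe it was 0.51.

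Oas1a, one of several mouse Oas1 copies, read 2.26, 1.96, 2.00 and 1.39 in WT and 2.34, 2.25, 2.23 and 1.58 in KO. The sample numbered 4 was the lowest of each genotype, and the difference was 0.20 (SE 0.26). Because Oas1a and Oas1g are near copies, as their upstream letters show, how far the Oas1a probe reads other copies is uncertain. Oas3 read 3.69, 3.25, 2.99 and 1.93 in WT and 3.30, 3.43, 2.88 and 2.43 in KO. WT samples spanned the KO range for Oas3 on both sides, with a difference of 0.04 (SE 0.41), while its dimmer second probe differed by 0.76. Oasl1, known for holding back translation of Irf7 messenger RNA, differed by -0.11, and WT sample 2 was its highest at 3.75.

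Among the RNA and DNA sensors, 5 of 7 tested had the higher mean in KO and 2 the lower, none called. Ddx58, which encodes the RNA sensor RIG-I, read -1.52, -0.93, -1.85 and -1.31 in WT and -1.04, -0.94, -1.42 and -0.98 in KO. WT sample 2 was highest and WT sample 3 lowest, and the difference was 0.31 (SE 0.23). The probes for Ddx58 disagreed: from the brightest to the dimmest of 4 the first 3 differed by 0.31, -0.40 and 0.26. The fourth was well above background on 1 of 4 WT and 3 of 4 KO arrays and is given no difference. Zbp1, a sensor of Z-form nucleic acid that can start necroptosis, read 1.83, 1.24, 1.56 and 0.84 in WT and 1.87, 1.49, 1.62 and 1.27 in KO. KO sample 1 lay just above the WT range and the other KO samples lay inside it, and the difference was 0.19 (SE 0.25).

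Ifi204, a DNA-binding protein of the PYHIN family, read 4.13, 4.04, 4.42 and 3.43 in WT and 4.49, 4.03, 4.45 and 3.43 in KO. The sample numbered 4 was lowest in both genotypes by a wide margin, and those 2 samples were almost equal. The difference between genotypes was 0.10 (SE 0.31), and 0.02 and 0.36 at the dimmer Ifi204 probes. Its relative Ifi205 differed by 0.19, the RNA sensor gene Ifih1 by 0.08 and Eif2ak2, the kinase PKR that shuts down translation, by -0.01. A dimmer Ifih1 probe differed by -0.11. Dhx58, a regulator of the RNA sensors, differed by -0.17 and was higher in KO at number 3 only. Ifi204 and Ifi205 are related in sequence, and cross-reading between their probes was not tested.

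The membrane factors stop viruses at the cell surface. Ifitm3, which blocks the fusion of incoming virus, read 6.42, 6.13, 5.96 and 5.99 in WT and 6.51, 6.23, 5.91 and 5.90 in KO. The samples numbered 1 were highest and those numbered 3 and 4 lowest in both genotypes, so the difference of 0.01 (SE 0.21) was small beside the order by number. Ifitm1 differed by 0.16, Ifitm2 by -0.06 (-0.04 at a dimmer probe) and Bst2, the tetherin that holds budding virus to the cell, by 0.08. The Ifitm genes are close relatives, and cross-reading between their probes was not tested.

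The ISG15 system tags proteins and limits the response. Isg15, the ubiquitin-like tag, read 3.28, 3.45, 2.38 and 2.80 in WT and 3.61, 3.42, 2.59 and 2.97 in KO. Samples numbered 1 and 2 were above those numbered 3 and 4 in both genotypes, and the difference was 0.17 (SE 0.32). Usp18, the protease that removes Isg15 and dampens the receptor, read 2.88, 2.82, 2.25 and 2.48 in WT and 3.34, 3.32, 2.61 and 2.77 in KO. KO was higher at every number, yet KO samples 3 and 4 lay below WT samples 1 and 2. The difference was 0.40 (SE 0.25), with an unadjusted limma p of 0.144.

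The nucleotide and RNA enzymes gave 3 higher and 2 lower means in KO, none called. Rsad2, viperin, which makes a nucleotide that stalls viral polymerases, read 4.71, 4.55, 3.80 and 4.06 in WT and 4.65, 4.09, 3.74 and 3.91 in KO. It was the one interferon-stimulated gene lower in KO at all 4 numbers, with a difference of -0.18 (SE 0.29), and its dimmer probes differed by -0.75 and -0.20. Rsad2 was picked out here after its values were seen, on this count. Its genomic neighbour Cmpk2, a nucleotide kinase, differed by -0.02, and by -0.26 at a dimmer probe. Samhd1, which destroys the building blocks of DNA, differed by 0.09, the exonuclease gene Isg20 by 0.09 and Adar, which edits adenosine to inosine, by 0.11. At dimmer probes the difference was -0.05 for Isg20 and 0.19 for Adar.

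Parp9 and Parp14 attach or read ADP-ribose on proteins. Parp9 read 0.87, 1.43, 1.22 and 1.31 in WT and 1.61, 1.66, 1.90 and 1.13 in KO. KO was higher at numbers 1, 2 and 3 and lower at number 4, with a difference of 0.37 (SE 0.22) and an unadjusted limma p of 0.135. Parp14 read 2.07, 1.69, 2.15 and 1.41 in WT and 2.31, 1.36, 2.00 and 1.07 in KO. KO samples 1 and 4 were the highest and lowest of the 8 for Parp14, and the difference was -0.15 (SE 0.32), with all 3 of its probes lower in KO.

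Trim30a, known for restraining Toll-like receptor signalling, read 4.32, 4.41, 4.44 and 3.65 in WT and 4.76, 4.44, 4.55 and 3.70 in KO. The sample numbered 4 was well below the rest of its own genotype in each case. The difference was 0.16 (SE 0.29), and 0.71 at a dimmer probe. Sp100, a nuclear body protein, differed by 0.30, with WT sample 4 at -0.04 and the other WT samples between 1.42 and 1.66. At a dimmer Sp100 probe the difference was 0.13.

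Of the 6 remaining genes, all had the higher mean in KO, none called, and Ifi44 stood out by size. Ifi44, an interferon-induced protein that can limit viral replication, read -0.03, 1.66, 0.004 and 1.39 in WT and 1.28, 2.59, 1.36 and 2.04 in KO. Within each genotype samples 2 and 4 were high and samples 1 and 3 low, and KO samples 1 and 3 lay below WT sample 2, so the genotypes overlapped. The difference was 1.06 (SE 0.49), with a 95% interval of -0.08 to 2.21, an unadjusted limma p of 0.0643 and an adjusted p of 0.9999. KO was higher at numbers 1 to 4 by 1.31, 0.93, 1.36 and 0.66. Leaving out any 1 sample gave 0.80 to 1.37. Ifi44 was read by 1 probe.

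Tor3a, an ATPase of the endoplasmic reticulum, read 2.02, 1.60, 2.11 and 1.19 in WT and 2.52, 2.25, 2.49 and 1.32 in KO. All 4 numbers had KO above WT, and KO sample 4 was the one KO sample inside the WT range, with a difference of 0.42 (SE 0.34). Ifi35 read 1.71, 1.45, 1.06 and 1.02 in WT and 1.47, 1.89, 1.36 and 1.21 in KO, with KO sample 2 highest and a difference of 0.17 (SE 0.23). Xaf1, which promotes cell death by binding the inhibitor XIAP, read 2.68, 2.35, 2.15 and 2.37 in WT and 2.63, 2.88, 2.29 and 2.33 in KO. KO sample 2 was also the highest for Xaf1, and the difference of 0.15 (SE 0.20) was smaller than the SD of either group. Rtp4, a chaperone of cell-surface receptors, read 5.13, 4.74, 4.60 and 4.57 in WT and 5.08, 4.94, 4.58 and 4.85 in KO, with a difference of 0.10 (SE 0.20). Ifi27l2a differed by 0.31 while ranging from 2.79 in WT sample 4 to 5.32 in WT sample 3, the second widest range of the 36 after Ifi44. A second Ifi27l2a probe, read in 7 of the samples, differed by 0.06.

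These genes varied more with the samples' replicate number than with genotype. Deviations of same-numbered WT and KO samples from their group means correlated across all genes at 0.30, 0.14, 0.70 and 0.51 for numbers 1 to 4. For number 2 this did not exceed every other pairing, since WT sample 2 and KO sample 4 reached 0.15 and WT sample 4 and KO sample 2 reached 0.14. The labels do not say what a number shares. Of the variation around each gene's mean, summed as squares over the 36 genes, number held 81.8% (42.9% by its degrees of freedom) and genotype 9.37% (14.3%). Over all genes these shares were 64.1% and 10.2%. Number held more than 50% for 35 of the 36 genes, against 68.2% of all genes, and the exception was Parp9 at 27.4%. With number as a block, 3 of 36 had an unadjusted limma p under 0.05 against 7.55% of all genes, whereas 3.33% of all genes did without the block. In that blocked limma fit, unadjusted p was 0.00201 for Ifi44, 0.0177 for Usp18 and 0.0309 for Tor3a. Their smallest adjusted limma p was 0.636, and still 0% of all genes had an adjusted p under 0.05.

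**Figure D2:**
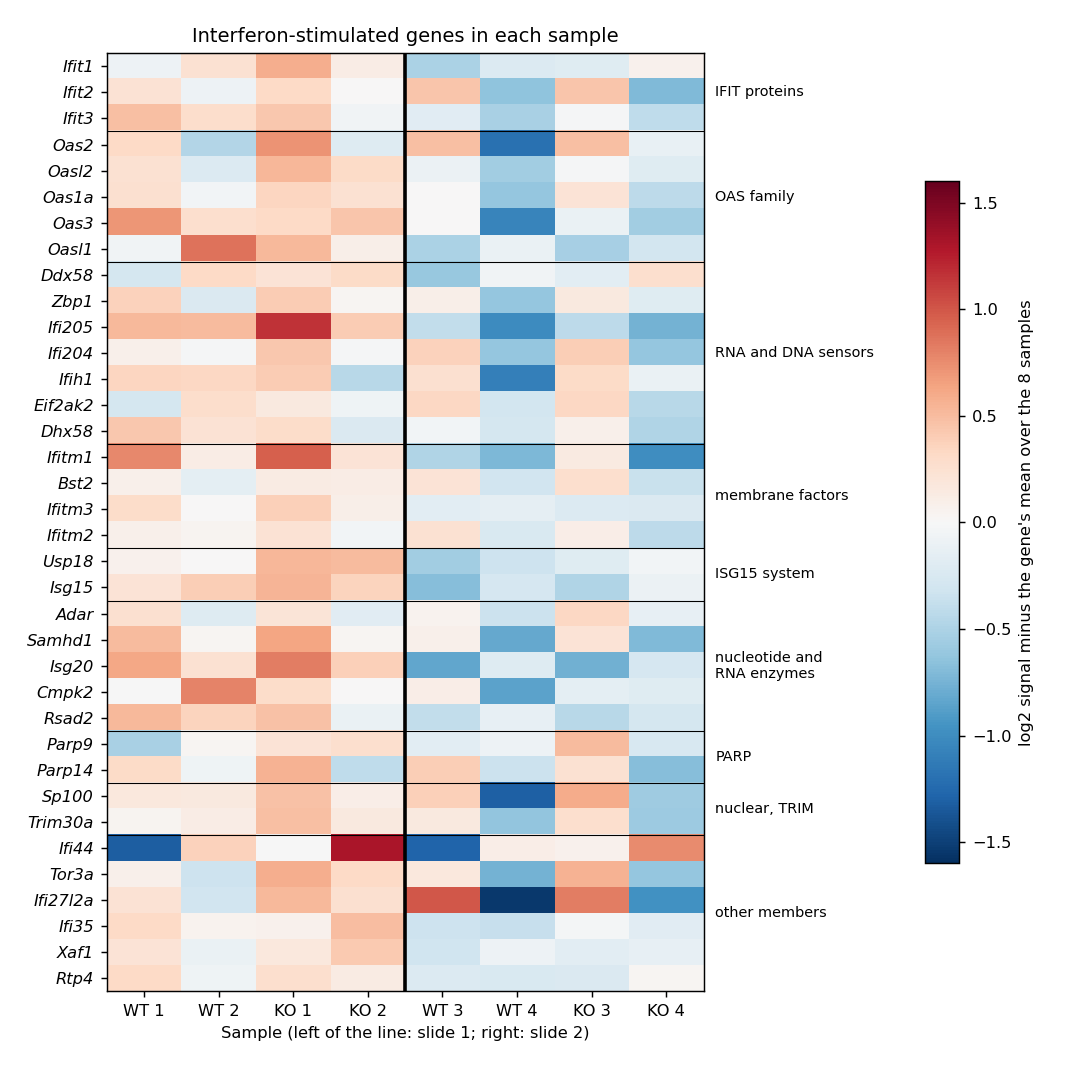
Log2 signal of the 36 interferon-stimulated genes in each of the 8 samples, minus each gene's mean over the 8, with samples of slide 1 (numbers 1 and 2) left of the line and slide 2 (numbers 3 and 4) right of it. Red is above and blue below the gene's mean; KO 1 is the highest sample for 17 genes and WT 4 the lowest for 18.

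Samples numbered 1 and 2 shared slide 1, and samples 3 and 4 of both genotypes shared slide 2. All 36 genes had a higher mean on slide 1 than on slide 2, against 50.3% of all genes, with a median difference of 0.37. The same held for 34 of 36 among the WT samples alone and for 34 of 36 among the KO samples alone. An effect of the slide and a difference between the numbers it holds cannot be told apart, and with 2 numbers on each slide no test was made. KO sample 1 was the highest of the 8 for 17 of 36 genes, against 13.8% of all genes. WT sample 4 was the lowest for 18 of 36, against 21% of all genes, and KO sample 4 for 8, against 12.1%.

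Which number was lowest split the genes. Averaged over the genotypes, 25 of 36 were lowest at number 4, against 34% of all genes, and 10 were lowest at number 3, against 24.4%: Ddx58, Ifit1, Ifitm3, Isg15, Isg20, Oasl1, Rsad2, Rtp4, Usp18 and Xaf1. The one gene lowest at number 1 was Ifi44. The highest number was 1 for 22 of 36, against 27.3% of all genes, and number 4 for none of the 36. Samhd1, for example, averaged 3.10, 2.56, 2.68 and 1.76 at numbers 1 to 4, while Isg15 averaged 3.45, 3.44, 2.48 and 2.89. Of the genes with a promoter window, an ISRE core was present in 5 of the 8 lowest at number 3 and in 9 of the 17 lowest at number 4.

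**Figure D3:**
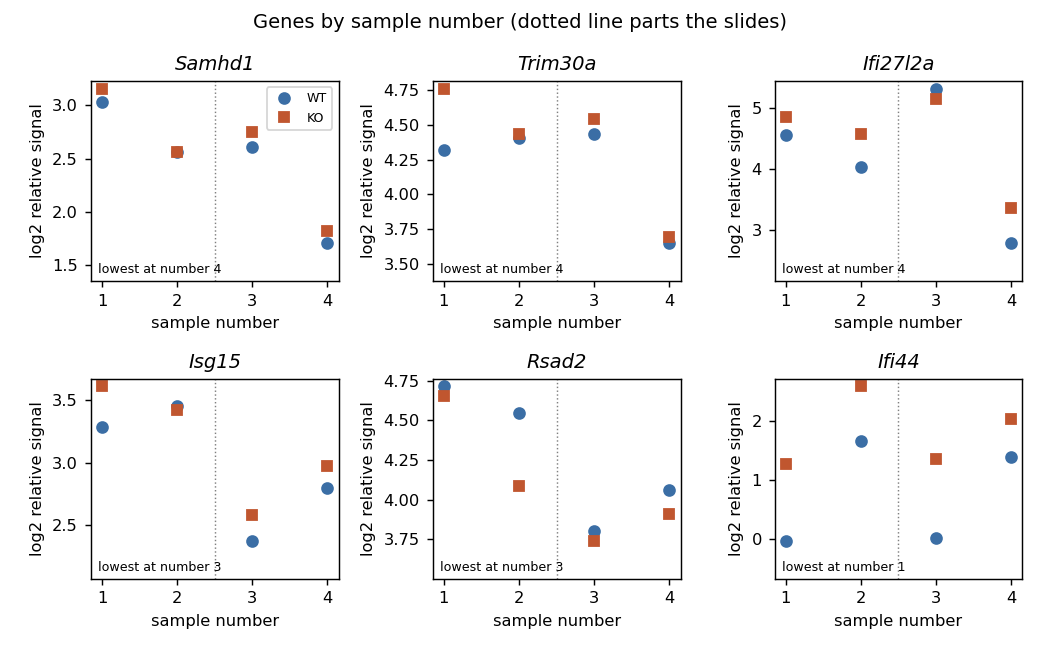
Log2 relative signal of 6 interferon-stimulated genes by sample number, circles for WT and squares for KO, with a dotted line between the slides. In Samhd1, Trim30a and Ifi27l2a number 4 is lowest, in Isg15 and Rsad2 number 3 is lowest, and in Ifi44 numbers 1 and 3 are low and KO lies above WT at each number.

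Marker genes of the cell types a tumour sort can hold also moved with the sample number, and some lists leaned towards 1 genotype. No marker gene was called between genotypes, and only the endothelial marker Vwf had an unadjusted limma p under 0.05 (0.029). The part of these cells in the interferon-stimulated signal was not tested. In bulk samples, fewer cells of a type and less RNA per cell cannot be told apart. The summed signal of 11 macrophage markers, in units of the array's 75th percentile, was 256.5 to 487 in WT and 259.8 to 488.5 in KO, with number 3 highest and number 4 lowest in both. The 7 monocyte markers summed to 30.2 to 116 in WT and 44.5 to 131 in KO, falling in the order of numbers 1, 2, 3 and 4 in both. The monocyte sum was higher in KO at each number, though little so at number 2 (70.4 in KO and 68.6 in WT). Of its 7 genes 6 had the higher mean in KO, and the exception was Ccr2, at -0.11. Ly6c2 gave the highest signal of the monocyte markers in every sample and so weighs most in their sum. The 8 neutrophil markers summed to 6.92 to 60.2 in WT and 4.99 to 54.7 in KO, in the order 1, 2, 4 and 3. The 8 tumour epithelial markers summed to 22.7 to 135 in WT and 25.1 to 136 in KO, highest at number 4 and then number 2. The 8 T cell markers summed to 5.885 to 14.99 in WT and 7.65 to 21.3 in KO and were higher in KO at each number. Every gene of these 5 lists passed the filter on dim probes except Cd68, a macrophage marker not matched by accession. The 7 plasmacytoid dendritic cell markers summed to 3.45 to 6.375 in WT and 2.845 to 6.92 in KO, and 5 had the higher mean in KO. In every sample Ly6d and Cox6a2 gave the highest signals of these markers, so the sum mostly follows them and says little of the others. Ly6d was highest at number 4 and lowest at number 3 in both genotypes, as was the tumour epithelial sum. The defining marker Siglech, singled out after its values were seen, was above background on 1 of 4 WT and 4 of 4 KO arrays. Its signal was near the background limit. WT sample 1 was the highest of the 8 for Siglech at -4.98, the other WT samples read -7.40 to -5.81 and the KO samples -5.59 to -5.01. All 7 endothelial markers tested had the lower mean in KO, with sums of 1.90 to 7.44 in WT and 1.91 to 3.98 in KO. Of the 5 B cell markers 4 had the higher mean in KO, with sums of 1.06 to 2.48 in WT and 1.43 to 3.85 in KO.

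**Figure D4:**
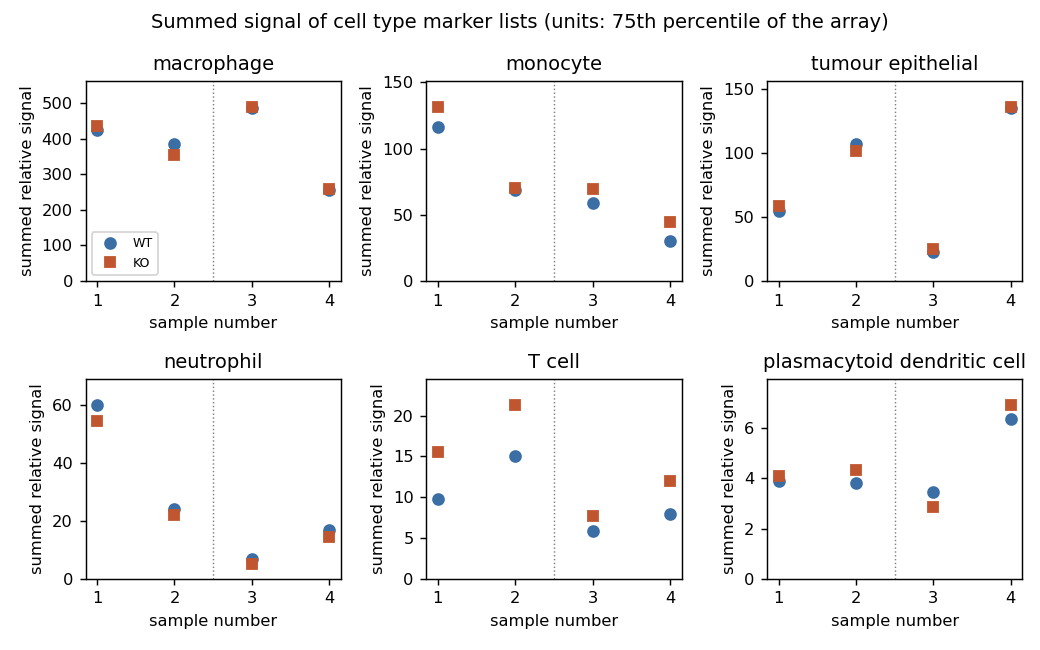
Summed relative signal of 6 cell type marker lists by sample number, circles for WT and squares for KO, each in units of the array's 75th percentile, with a dotted line between the slides. WT and KO samples of one number lie close together for macrophage and tumour epithelial markers, and KO lies above WT at each number for monocyte and T cell markers. The plasmacytoid dendritic cell sum mostly follows Ly6d and Cox6a2.

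Several orders recurred among the genes' means by number. The order 1, 3, 2, 4 from high to low was shared by 9 of 36 genes (Adar, Dhx58, Ifih1, Oas1a, Oas2, Parp14, Samhd1, Trim30a and Zbp1), against 9.18% of all genes. The order 1, 2, 4, 3, that of the neutrophil marker sum, was shared by 8 (Ifit1, Ifitm3, Isg15, Isg20, Rsad2, Rtp4, Usp18 and Xaf1), against 3.43% of all genes. The order 3, 1, 2, 4, that of the macrophage marker sum, was shared by 7 (Bst2, Ifi204, Ifi27l2a, Ifit2, Ifitm2, Sp100 and Tor3a), against 11.3%. The order 1, 2, 3, 4, that of the monocyte marker sum, was shared by 5 (Ifi205, Ifit3, Ifitm1, Oas3 and Oasl2), against 4.68%. Ifi44 shared none of these orders and was high at numbers 2 and 4, where the tumour epithelial sum was high as well. Other orders and sums did not meet. No marker sum had the order 1, 3, 2, 4, the one most often shared. The T cell marker sum ran 2, 1, 4, 3 in both genotypes, an order shared by 1 gene, Oasl1, against 2.43% of all genes. None of the 36 had the order of the tumour epithelial sum, 4, 2, 1, 3. With 4 numbers, an order is a description of these samples and was not tested.

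No gene upstream of the effectors was called. Of 33 other interferon pathway genes 31 were matched and 28 tested, 10 had the higher mean in KO and 18 the lower, with a median difference of -0.02. The count higher was 5 without WT sample 4, 20 without WT sample 1 or KO sample 4, and 17 with normexp. Ifnb1, the interferon beta gene, read 0.54, 1.97, -1.19 and -0.03 in WT and 1.25, -0.003, -0.29 and -0.17 in KO. It varied more within a genotype than between them, with WT sample 2 highest, WT sample 3 lowest and a difference of -0.13 (SE 0.67). The interferon alpha genes Ifna5 and Ifna2 differed by 0.97 (SE 0.66) and 0.58 (SE 0.43). With normexp both signs turned, to -0.25 for Ifna5 and -0.34 for Ifna2. Ifna5 was dim and was well above background on 3 of 4 KO arrays. Its WT samples read -5.70 to -5.00, and the lowest signals well above background on WT arrays were -6.135 to -5.412. For Ifna5 KO sample 1 stood at -2.25, with the other KO samples between -5.64 and -4.47. Without KO sample 1 the Ifna5 difference was 0.28. The receptor genes Ifnar1 and Ifnar2 differed by -0.07 and -0.11, Tlr9, a sensor of DNA in endosomes, by -0.18, and the kinase gene Tbk1, which activates Irf3, by -0.33.

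Among the factors that bind the ISRE, Stat2 differed by -0.01 (SE 0.28) and Irf9 by -0.04 (SE 0.19). Irf7, which is itself induced and amplifies the interferon alpha response, read 2.30, 1.76, 1.42 and 0.99 in WT and 2.39, 2.14, 1.50 and 1.62 in KO. Irf7 was higher in KO at each number, and the difference was 0.29 (SE 0.33), or 0.082 without WT sample 4. None of these 3 had an unadjusted limma p under 0.05, and none was called.

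Targets of interferon gamma, the type II interferon made mainly by T and NK cells, were read from a separate list. Of its 15 genes, 14 had the higher mean in KO, against 48.6% of all genes, with a median difference of 0.14. None was called and none had an unadjusted limma p under 0.05. Without WT sample 4, 6 of 15 were higher and the median was -0.02. Without both samples numbered 4, a choice made after seeing the data, the median was 0.09 and the count 10 of 15. Within slide 1 it was 8 of 15 and within slide 2 it was 14. Iigp1, a GTPase that attacks the vacuoles of intracellular parasites, read -0.05, 0.31, 0.58 and -0.71 in WT and 0.22, 0.48, 0.97 and 1.07 in KO. KO was higher at each number, most at number 4, with a difference of 0.65 (SE 0.33). Cxcl9, a T cell attractant, differed by 0.73 (SE 0.55) and Gbp2 by 0.50 (SE 0.43), with WT sample 4 lowest for both, at 0.16 and 0.35. Without that sample the differences were 0.19 for Cxcl9, 0.072 for Gbp2 and 0.40 for Iigp1. Gbp5 was the one lower mean, at -0.48 (SE 0.34). All 8 T cell markers and 6 of 7 NK cell markers also had the higher mean in KO, none called. The NK cell sums were 6.36 to 17.1 in WT and 8.98 to 32.9 in KO. The part of these cells in the differences of the interferon gamma targets was not tested.

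In the fit of genotype alone, which counts variation between numbers as spread within a genotype, the 8 samples bounded the differences loosely. The median within-group SD was 0.42 over the 36 genes and 0.47 over all genes, and the median 95% interval reached 0.67 to either side of the estimate. The interval excluded a 2-fold difference in either direction for 28 of the 36 and for 10714 of all 20879 genes. A p above the threshold does not show that the genotypes were equal.

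**Figure D5:**
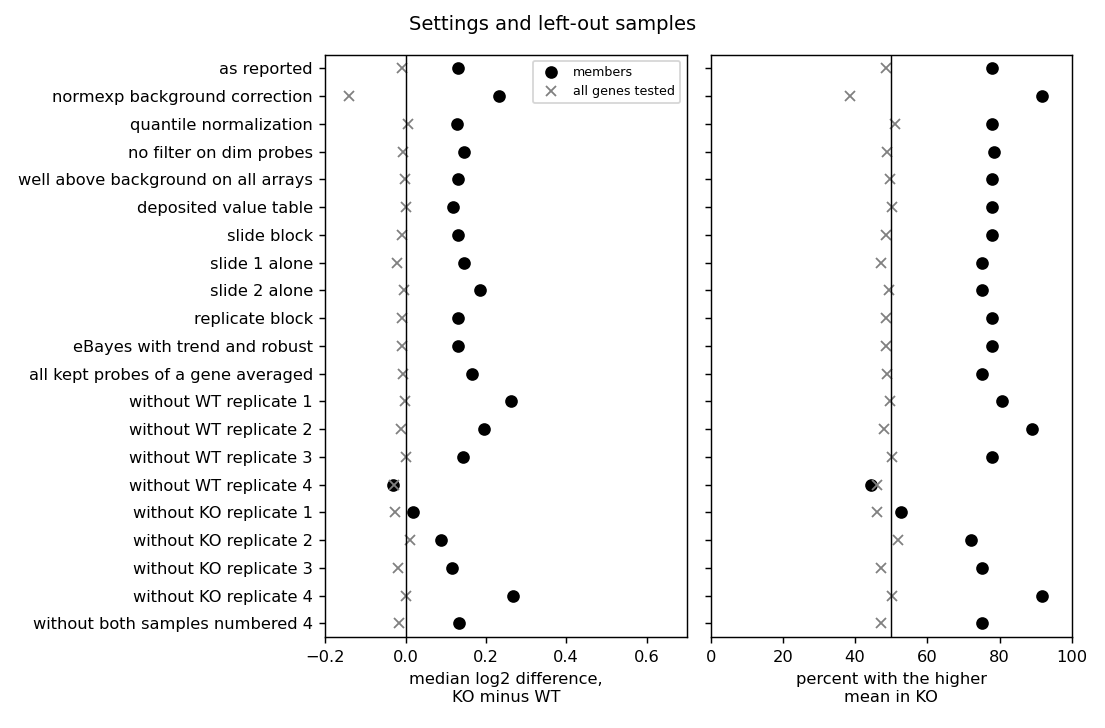
Median log2 difference (KO minus WT, left) and percent of genes with the higher mean in KO (right) under each processing setting and with each sample left out, filled circles for the interferon-stimulated genes and crosses for all genes tested. The circles meet the crosses without WT replicate 4, where the median is -0.03, and lie to the right of them elsewhere.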

How the data were processed

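Total RNA of the 8 sorted samples was labelled with Cy3 and hybridised to 1-colour Agilent mouse arrays, per the labels' protocols. Per the file headers, the authors extracted each spot's intensity with Agilent Feature Extraction 10.7.1.1 as a background-corrected processed signal (the submitters' processing notes name version 10.5). The authors' deposited table of processed intensity was used only as an alternative.

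After removal of controls and of spots marked as outliers, the deposited intensity was taken to log2, averaged per probe and scaled to the 75th percentile of its array. A probe had to be well above background on 4 or more of the 8 arrays (27165 of 41174 were), and each gene was read by its brightest such probe. Names came from the probe's accession through a RefSeq table of assembly GRCm38.p6 (25097 probes), which gave a symbol to 13462 of the 20879 genes in the fit.

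The comparison of genotypes used limma 3.58.1 (lmFit, eBayes; R 4.3.3) with no other term, two-sided, with Benjamini-Hochberg adjustment over all genes tested. The test was checked on simulated data with independent noise in each sample, which lacked the variation shared by samples of one number or slide. The alternatives were normexp background correction (offset 50), quantile normalization, the deposited table, 2 other filters on dim probes, slide and replicate number as blocks, each slide alone, eBayes with trend and robust settings, all probes of a gene averaged, and each sample left out. Leaving out both samples numbered 4 was chosen after seeing the data. Deviations of same-numbered samples correlated above 0.1 for all 4 numbers, so by that limit the numbers were taken to pair samples, from the data and not the labels, although for number 2 some other pairings correlated as well.

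The genes and lists were chosen with earlier results of these data known. Values in every sample are given for the 12 genes with the smallest unadjusted p, the brightest gene of each role, and any gene whose genotypes do not overlap. From the other lists the rule takes 7 set genes, 1 of which is not reported here, and up to 4 each by smallest p, and others are said to be chosen after their values were seen. Promoter sequences are from RefSeq.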

Additional observations from a re-analysis of the deposited data

Results flagged for a closer look

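In 4 of 72 groups (36 genes in 2 genotypes), 1 sample lay far from the other 3 of its genotype by Dixon's test, where chance flags about 1 in 20 groups. Each of these samples was numbered 4 and was low. Ifih1, the gene of an RNA sensor, was at -0.18 in WT sample 4 and between 1.16 and 1.25 in the other WT samples. Sp100, a nuclear body gene, was at -0.041 in WT sample 4 and between 1.42 and 1.66 in the others. Trim30a was at 3.65 in WT sample 4 and between 4.32 and 4.44 in the others. Oas1a was at 1.58 in KO sample 4 and between 2.23 and 2.34 in the other KO samples.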

How the results depend on the processing

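No interferon-stimulated gene, other pathway gene or interferon gamma target was called under any setting run. The number of the 36 genes with the higher mean in KO ranged from 16 to 33 with 1 sample left out, and was 16 without WT sample 4. With 1 sample left out, 0 to 1 of all genes were called (1 without KO sample 1), and the median difference ranged from -0.03 to 0.27. Normexp background correction moved the median of all genes from -0.0086 to -0.14 and turned the sign of 7 of the 36 differences, among the genes given by sample Ddx58 (-0.025), Ifit3 (0.036), Parp14 (0.0017) and Rsad2 (0.053), and besides them Dhx58, Ifitm2 and Oasl1. The cause was not tested. The deposited table turned Eif2ak2 and Ifit2, averaging probes turned Ifih1, and quantile normalization turned none. Within slide 1 Oas3 (-0.11), Adar, Eif2ak2, Ifih1 and Ifitm2 turned, and within slide 2 Ifit3 (0.13), Ifitm3 (-0.067), Bst2, Cmpk2 and Ifit2. Without both samples numbered 4, a choice made after seeing the data, Oas3 (-0.11), Eif2ak2 and Ifih1 turned. With 1 sample left out, 20 of the 36 turned sign. The ranges were -0.21 to 0.12 for Ifit3, -0.030 to 0.36 for Isg15, -0.11 to 0.11 for Ifitm3, -0.095 to 0.32 for Ifi204, -0.028 to 0.38 for Trim30a, -0.30 to 0.28 for Oas3 and -0.35 to 0.057 for Parp14. For genes described without values in every sample they were -0.27 to 0.24 for Ifih1, -0.15 to 0.69 for Ifi27l2a, -0.083 to 0.54 for Sp100, -0.18 to 0.36 for Isg20, -0.17 to 0.34 for Samhd1, -0.16 to 0.47 for Ifi205, -0.13 to 0.52 for Ifitm1, -0.18 to 0.27 for Ifit2 and -0.30 to 0.17 for Oasl1, and Bst2, Cmpk2, Eif2ak2 and Ifitm2 turned as well. In the fit with replicate number as a block, differences were unchanged by construction, 0 genes were called, and the smallest adjusted limma p of the 36 was 0.636. All 36 genes were well above background on every array.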
